A study of Sus scrofa with 40 samples.

Results

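The genes described here are 43 genes of fatty acid oxidation and of its regulation by the receptor PPARA, listed by symbol and read on porcine kidney arrays. A gene was taken as measured where a spot other than a control spot carried its symbol as gene name or in brackets in its description. This held for 35 of the 43 genes, on 44 identifiers and 112 of 43803 spots. By role, 12 of 16 mitochondrial enzymes and electron transfer flavoproteins, 4 of 4 carnitine acyltransferases, 6 of 8 peroxisomal enzymes, 8 of 8 genes of fatty acid uptake, binding and activation, and 5 of 5 regulators and PPARA target genes were on the array. ACADVL, ACAA2, ECI1, HSD17B10, ACOX3, AMACR, ACAT1 and BDH1 had no identifier under this rule, so neither of the 2 ketone body enzymes was measured.

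Fatty acids enter the cell through CD36, are bound by FABP proteins and DBI, and are activated to acyl-CoA by ACSL enzymes. Carnitine acyltransferases carry the acyl group into mitochondria, where acyl-CoA dehydrogenases, the trifunctional protein (HADHA and HADHB) and thiolases shorten it and pass electrons to the electron transfer flavoproteins. Peroxisomes handle very long and branched chains. The proximal tubule of the kidney takes most of its energy from this pathway, and PPARA, a nuclear receptor activated by fatty acids, drives the transcription of many of its genes with the coactivator PPARGC1A.

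Kidneys of Large White pigs aged 3 months were used, and each of 8 groups held 5 arrays. Control kidneys (Ctl) were sampled upon removal. Kidneys of the warm ischemia group (WI) were kept clamped for 60 min at 37 °C, and in WI+CS6h and WI+CS24h such kidneys were next flushed with UW (University of Wisconsin preservation solution) and kept at 4 °C for 6 h or 24 h. Cortex (C) and corticomedullary junction (CMJ) were read in every condition. Per the labels the 40 samples came from 15 kidneys, because cortex and CMJ samples of a condition shared 5 organs and WI+CS6h and WI+CS24h samples were cut from the same 5. The 6 h and 24 h comparisons with Ctl therefore share both their kidneys and their controls, and flush and storage cannot be told apart. WI alone and stored kidneys were different organs. The samples hold several cell types, and fewer cells of a type and less RNA per cell cannot be told apart in them.

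Values are log2 signals after quantile normalization of the 40 arrays, and the brightest identifier stands for a gene. A call needs an adjusted p below 0.05 from limma and a log2 fold change of 0.5 or more in size. On an array, 57.0% to 69.9% of the spots stood well above background. Of the proximal tubule markers listed, 11 were on the array and all 11 lay well above background on all 40 arrays, so the labelled tissue carried its main cell type. FABP1 was well above background on 17 of 40 arrays, and ECHS1 was saturated on 16 arrays. FABP1 was so near background that its differences are counted among those of the members but are not described singly.

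The array reads each gene through probes of 60 bases, and some of the probes on which the results turn are given here 5′ to 3′ as the array design lists them, with their first base in the transcript. The 3 HADHA probes are shown because they fell by different amounts, and those of PHYH because probes far apart in the transcript rose alike. The PHYH probes shown belong to its second identifier, NM_001113447, while the PHYH values of single arrays come from ENSSSCT00000024134. The PPARA probe is shown because it belongs to the identifier that was not called, NM_001044526, while the probe of the called one is not shown.
HADHA, position 1985: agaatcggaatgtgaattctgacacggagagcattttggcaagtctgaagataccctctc
HADHA, position 1588: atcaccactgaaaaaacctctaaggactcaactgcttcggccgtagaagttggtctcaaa
HADHA, probe nearest the 5′ end: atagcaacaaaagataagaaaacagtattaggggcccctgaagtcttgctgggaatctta
PHYH, position 440: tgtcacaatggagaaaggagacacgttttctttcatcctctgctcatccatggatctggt
PHYH, position 33: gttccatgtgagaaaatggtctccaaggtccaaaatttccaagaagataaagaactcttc
PPARA, position 1216: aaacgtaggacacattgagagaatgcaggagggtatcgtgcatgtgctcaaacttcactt

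After warm ischemia alone no member passed the test in either tissue. In WI-C versus Ctl-C 0 members were called by limma, against 0.0946% of all identifiers, and in WI-CMJ versus Ctl-CMJ 0 members, against 0.687%. The median log2 fold change of the members was 0.07 in cortex and 0.06 in CMJ, and over the alternatives of processing it ran from -0.03, with quantile normalization by group, to 0.15 in cortex and from 0.04 to 0.12 in CMJ. CPT2, the inner membrane carnitine acyltransferase, had the largest positive difference in cortex, 0.37, and stood at 0.38 in CMJ, neither of which passed the test.

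After cold storage 10 members passed the test in 1 or more comparisons with Ctl or WI, which is 28.6% of the members beside 8.67% of all identifiers. The members were chosen with earlier results of these data known, and all identifiers include dim ones. The excess, here and in the single comparisons, is therefore no test of the list. PHYH and PPARA were called higher, and PDK4, HADHA, HSD17B4, CPT2, PLIN2, ANGPTL4, DBI and HADHB lower. In cortex 4 members were called after 6 h against Ctl, which is 11.4% of the members beside 4.02% of all identifiers. Of these 1 was higher, beside 1.63% of all identifiers, and 3 were lower, beside 2.39%. After 24 h again 1 was higher (beside 1.04%) and 3 lower (beside 1.46%), or 11.4% beside 2.5%. In CMJ 2 members were called higher (beside 1.35%) and 3 lower (beside 1.84%) after 6 h, or 14.3% beside 3.19%. After 24 h 1 was higher (beside 1.35%) and 6 lower (beside 2.3%), or 20.0% beside 3.65%.

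Against WI the counts were of similar size. In cortex 1 member was called higher (beside 1% of all identifiers) and 4 lower (beside 0.921%) after 6 h, or 14.3% of members beside 1.93%. After 24 h 1 was higher (beside 0.637%) and 4 lower (beside 0.568%), or 14.3% beside 1.2%. In CMJ 2 were called higher (beside 1.37%) and 5 lower (beside 1.41%) after 6 h, or 20.0% beside 2.78%, and 1 higher (beside 1.24%) and 8 lower (beside 1.61%) after 24 h, or 25.7% beside 2.85%. The members' median log2 fold change against Ctl was -0.20 in cortex at both times, -0.12 in CMJ after 6 h and -0.19 after 24 h, where the medians over all identifiers were 0.05, 0.01, -0.01 and 0.00. The cortex median after 6 h was -0.04 with 75th percentile scaling and -0.07 with quantile normalization by group, and with the latter the CMJ median turned to 0.01 after 6 h and was -0.10 after 24 h. Without the stored arrays numbered 5 the cortex medians were -0.10 and -0.07. The cortex median after 24 h was -0.08 with 75th percentile scaling, -0.10 with normexp, and -0.12 on the deposited values and with scan day as a block, and that after 6 h was -0.12 with normexp. Of the 35 genes 22 lay below Ctl in all 4 comparisons, 9 lay above it in all 4 and 4 were mixed, while 24% of all identifiers lay below and 27% above in all 4.

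**Figure D1:**
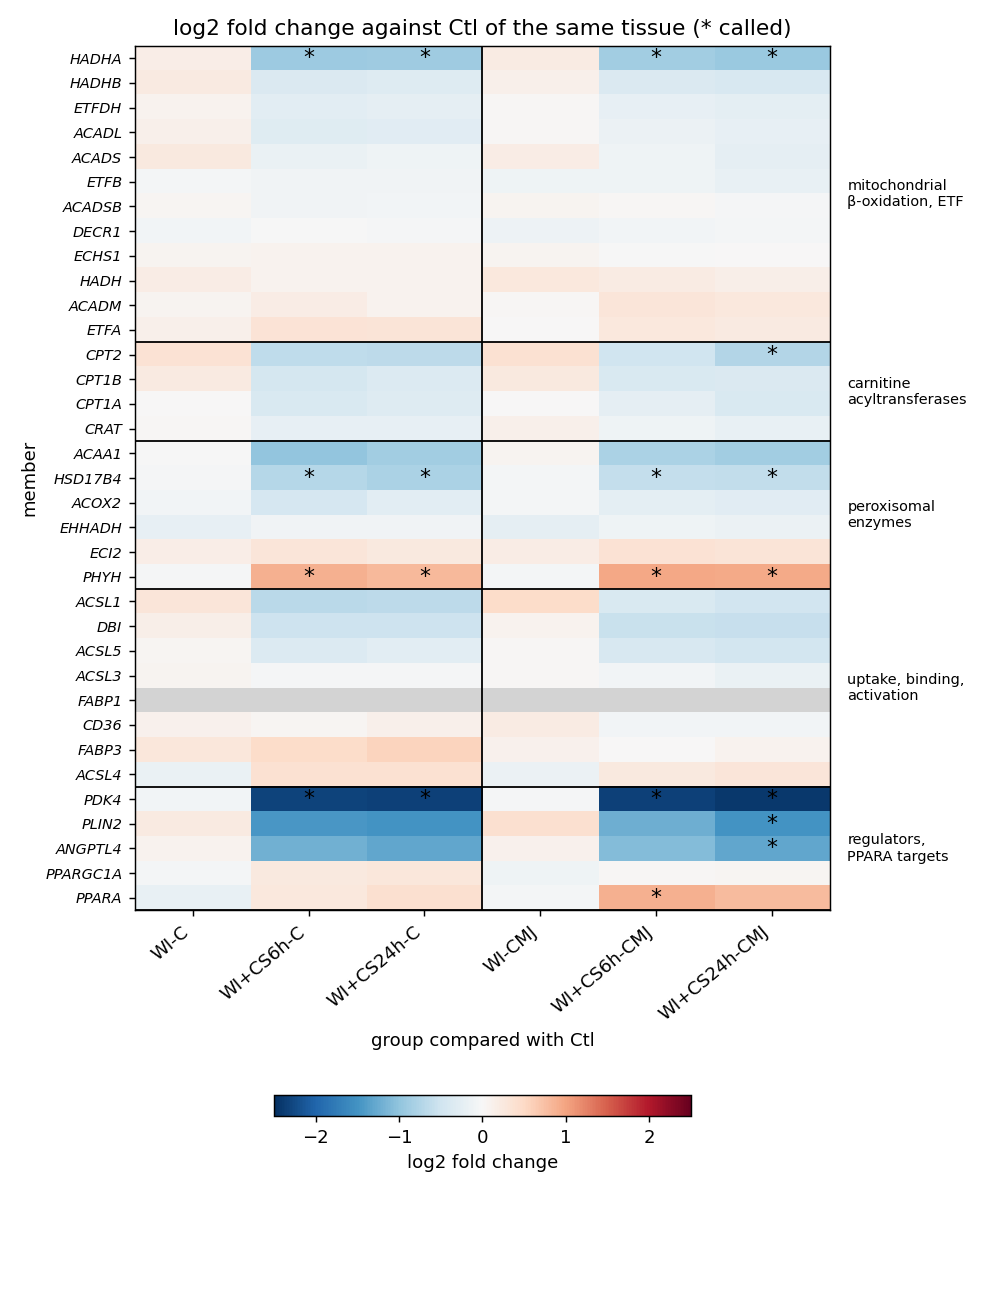
Log2 fold change of the measured members against Ctl of the same tissue (colour, from -2.5 to 2.5), with members in lines ordered by role and 6 groups in columns, and FABP1 left grey because it was near background. An asterisk marks a call (limma, adjusted p below 0.05 and a log2 fold change of 0.5 or more in size). Both WI columns hold no asterisk, and PDK4, HADHA, HSD17B4 and PHYH carry one in each of the 4 stored columns.

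**Figure D2:**
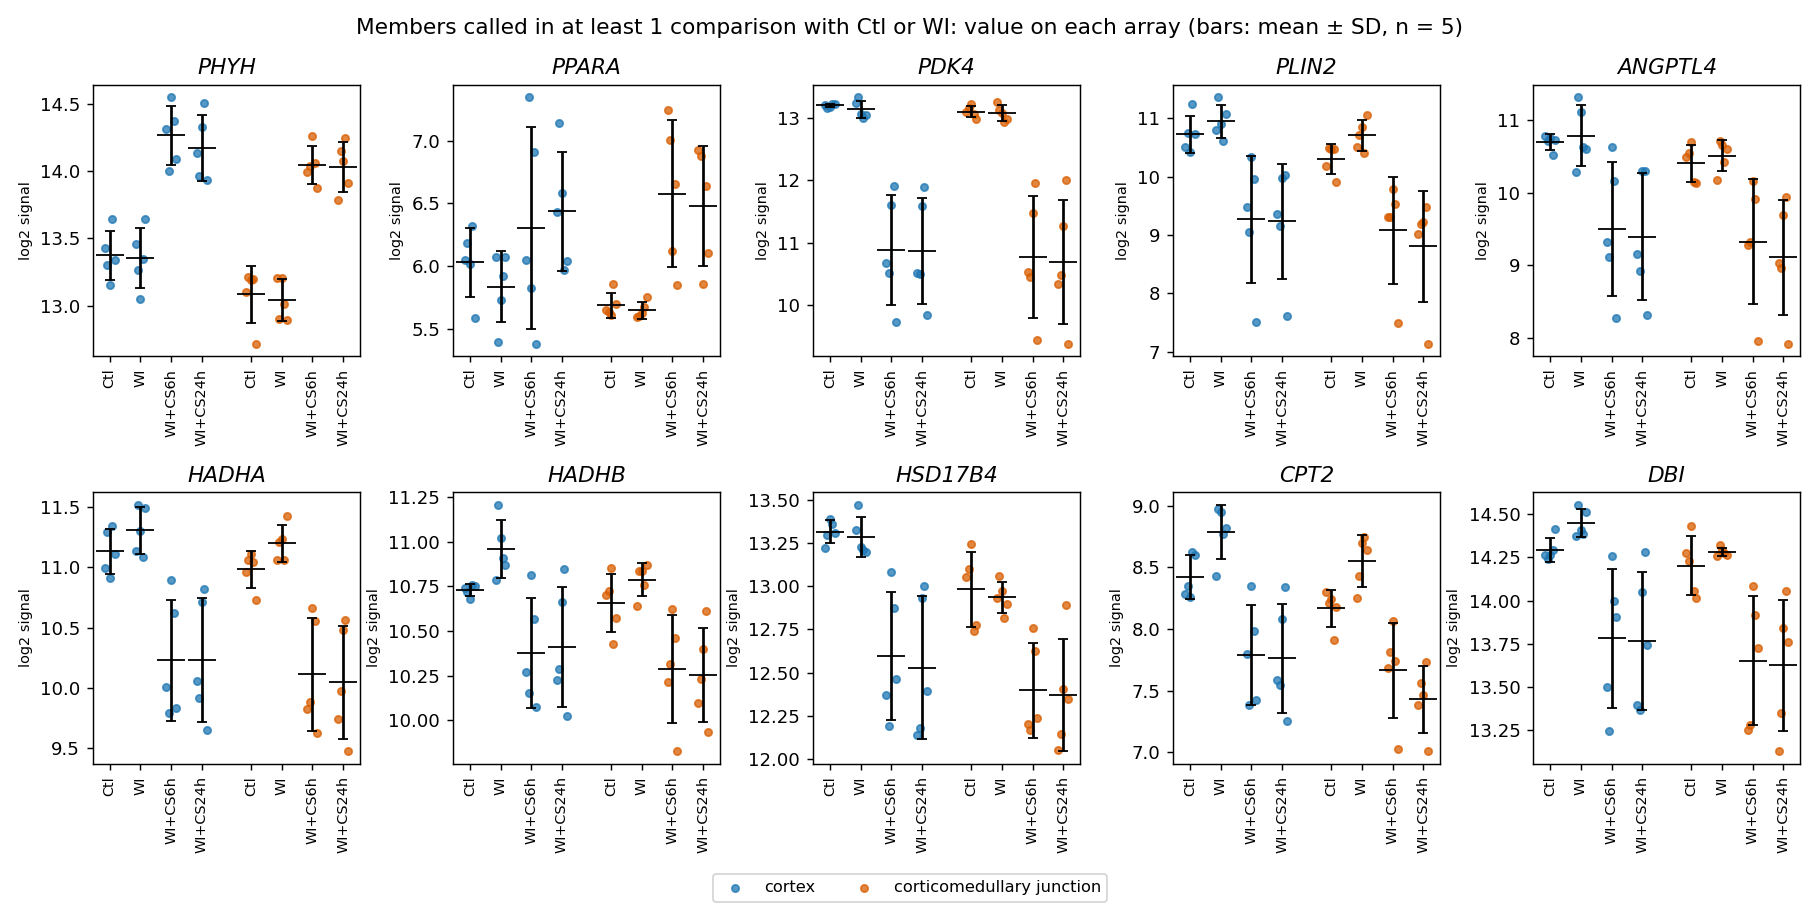
Log2 signal on every array of the 10 members called in at least 1 comparison with Ctl or WI. Each point is 1 of 5 arrays of a group, and the bars are the mean and SD. PHYH stands higher in all stored groups than in all Ctl and WI groups of the same tissue, and PDK4 stands lower in them with a wide spread.

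Among the 12 members counted as mitochondrial enzymes and electron transfer flavoproteins, only HADHA and HADHB, the subunits of the trifunctional protein, were called. HADHA, the alpha subunit with the hydratase and long-chain dehydrogenase activities, read 11.00, 11.29, 10.91, 11.34 and 11.11 on the Ctl-C arrays and 10.01, 9.79, 10.90, 10.62 and 9.83 on the WI+CS6h-C arrays. After 24 h the cortex arrays read 10.06, 9.92, 10.71, 10.82 and 9.65. Every stored array lay below every Ctl array, with arrays 3 and 4 the nearest to them. HADHA fell by 0.90 (SE 0.23, limma adjusted p = 0.0341) after 6 h and by 0.90 (adjusted p = 0.0441) after 24 h.

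In CMJ HADHA read 10.96, 11.06, 11.11, 11.05 and 10.73 on the Ctl arrays. The WI+CS6h-CMJ arrays gave 9.83, 9.89, 10.66, 10.56 and 9.63 and the WI+CS24h-CMJ arrays 9.74, 9.97, 10.48, 10.56 and 9.48. The groups again did not overlap, and arrays 3 and 4 were again the highest of the stored ones. HADHA fell by 0.87 (SE 0.21, limma adjusted p = 0.0236) after 6 h and by 0.93 (adjusted p = 0.0134) after 24 h, and against WI the difference ran from -1.15 to -1.07 over the 4 comparisons, all called.

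The HADHA calls against Ctl depended on single arrays in 3 of 4 comparisons. In cortex after 24 h the call was kept only when array WI+CS24h-C 3 or 4 was left out, with adjusted p from 0.0231 to 0.112 over the 10 arrays left out in turn. After 6 h in cortex it was kept without Ctl-C 5 or WI+CS6h-C 3 or 4 (0.0164 to 0.0911), and in CMJ after 6 h it was lost without Ctl-CMJ 2 or 4 or WI+CS6h-CMJ 1, 2 or 5 (up to 0.0662). Against WI in cortex, the 6 h call was lost without WI-C 5 or WI+CS6h-C 1 and the 24 h call without WI-C 2, 3 or 5 or WI+CS24h-C 1, 2 or 5, with adjusted p up to 0.0591 and 0.0762. Both cortex calls against Ctl were lost with 75th percentile scaling (adjusted p = 0.0924 and 0.109) and without the stored arrays numbered 5 (0.0607 and 0.0733), that after 24 h also with scan day as a block (0.0609), and with slide as a block the 24 h CMJ call against Ctl was lost (-0.81, adjusted p = 0.120). The 2 HADHA probes nearer the 3′ end, at positions 1985 and 1588, fell by 1.00 to 1.18 against Ctl and were called in all 4 comparisons, while the probe nearest the 5′ end stood at -0.66 to -0.46 and was not.

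HADHB, the thiolase subunit of the same protein, was called in 1 comparison. Its WI-CMJ arrays read 10.64, 10.83, 10.83, 10.76 and 10.87 and its WI+CS24h-CMJ arrays 10.10, 10.23, 10.40, 10.61 and 9.93, so that the groups did not overlap. It fell by 0.53 (SE 0.14, limma adjusted p = 0.0365) against WI, close to the fold limit. Against Ctl it lay between -0.40 and -0.32 and did not pass. The call was kept only when WI-CMJ 1 or WI+CS24h-CMJ 3 or 4 was left out, and was lost with slide as a block (-0.55, adjusted p = 0.0665) and with 75th percentile scaling (0.0533). With quantile normalization by group (-0.44), normexp (-0.46) and without the stored arrays numbered 5 (-0.45) it was under the fold limit.

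The other 10 members counted as mitochondrial enzymes and electron transfer flavoproteins did not pass in any comparison. Their log2 fold changes after storage against Ctl ran from -0.31 for ACADL, the long-chain acyl-CoA dehydrogenase, to 0.35 for ETFA, the alpha chain of the electron transfer flavoprotein. ACADM, the medium-chain dehydrogenase, lay at 0.09 to 0.29, and HADH, the short-chain hydroxyacyl-CoA dehydrogenase, at 0.09 to 0.21. ACADS, the short-chain dehydrogenase, ETFDH, which passes electrons on to ubiquinone, and ETFB lay below 0 in all 4 comparisons, at -0.27 to -0.08, as did DECR1, the dienoyl-CoA reductase, at -0.06 to -0.01. ACADSB, the dehydrogenase of short branched chains, and ECHS1, the enoyl-CoA hydratase, were mixed in sign. ACADVL was not matched by symbol, but 1 identifier, ENSSSCT00000019531, names a very long-chain specific acyl-CoA dehydrogenase in words. Chosen after its values were seen, it lay at -0.57 to -0.49 against Ctl, not called, and was called lower against WI, by 0.77 in cortex after 6 h, 0.71 in CMJ after 6 h and 0.78 in CMJ after 24 h. ACOX3, the peroxisomal oxidase of branched chains, is likewise named outside brackets in the descriptions of ENSSSCT00000009544, which lay at 0.33 to 0.54 against Ctl, and of TC630788, at 0.06 to 0.15, neither called in any comparison with Ctl or WI.

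Of the 4 carnitine acyltransferases CPT2 was called. Its Ctl-CMJ arrays read 8.30, 8.21, 8.24, 7.91 and 8.18 and its WI-CMJ arrays 8.25, 8.43, 8.70, 8.75 and 8.64. The WI+CS24h-CMJ arrays read 7.38, 7.56, 7.46, 7.73 and 7.01. Every array stored for 24 h lay below every Ctl and WI array of CMJ, with array 5 the lowest. CPT2 fell by 0.74 (SE 0.17, limma adjusted p = 0.0126) against Ctl and by 1.12 (adjusted p = 7.97e-04) against WI. With slide as a block the call against Ctl was lost (-0.64, adjusted p = 0.158), and with normexp it was under the fold limit (-0.42).

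After 6 h in CMJ the CPT2 arrays read 7.69, 7.81, 8.07, 7.74 and 7.03, of which array 3 overlapped the Ctl arrays. The difference from Ctl was -0.50 (adjusted p = 0.105) and that from WI -0.89 (adjusted p = 0.00523), of which only the latter was called. In cortex the WI arrays read 8.42, 8.97, 8.95, 8.77 and 8.82, the 6 h arrays 7.80, 7.38, 8.35, 7.98 and 7.42 and the 24 h arrays 7.59, 7.54, 8.08, 8.34 and 7.25. CPT2 fell there by 1.00 (adjusted p = 0.0140) and 1.03 (adjusted p = 0.0144) against WI, without overlap, while the differences from Ctl, -0.64 and -0.66, did not pass (adjusted p = 0.0802 and 0.0943). The WI arrays lay above the Ctl mean, as given above.

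CPT1A, the rate-limiting acyltransferase of the outer mitochondrial membrane, was not called in any comparison. It read 9.30, 9.53, 9.26, 9.42 and 9.22 on Ctl-C and 9.33, 9.12, 9.64, 9.43 and 7.29 on WI+CS6h-C arrays. Array 5 stood far below the rest, and the same held in the other stored groups, where array 5 read 7.57, 7.34 and 7.04. The log2 fold changes against Ctl were -0.39, -0.31, -0.22 and -0.38. Without the 4 stored arrays numbered 5 they were 0.03, 0.05, 0.18 and 0.05, so the sign rested on those arrays. CPT1B, the muscle isoform, lay at -0.44 to -0.34 and CRAT, which acts on short chains, at -0.20 to -0.12, neither called.

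PHYH, the peroxisomal hydroxylase that starts the breakdown of phytanic acid, was the one oxidation enzyme among the members that was called higher. Its Ctl-C arrays read 13.43, 13.30, 13.16, 13.64 and 13.34, the WI+CS6h-C arrays 14.32, 14.002, 14.55, 14.38 and 14.10 and the WI+CS24h-C arrays 14.14, 13.96, 14.33, 14.51 and 13.94. All stored arrays lay above all Ctl arrays. PHYH rose by 0.90 (SE 0.14, limma adjusted p = 0.00134) after 6 h and by 0.80 (adjusted p = 0.00356) after 24 h.

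In CMJ PHYH read 13.10, 13.21, 13.19, 13.20 and 12.71 on Ctl arrays and 13.21, 12.90, 13.21, 13.01 and 12.89 on WI arrays. After 6 h it read 13.996, 14.04, 14.26, 14.06 and 13.88 and after 24 h 13.79, 14.15, 14.08, 14.25 and 13.91. The stored arrays again lay above all others, with a narrow spread. PHYH rose by 0.97 (SE 0.11, limma adjusted p = 6.66e-05) and 0.95 (adjusted p = 7.79e-05) against Ctl and by 1.01 and 0.99 against WI. All 6 PHYH probes were called higher in each comparison, and the second identifier, NM_001113447, rose by 0.98 to 1.04 against Ctl. The 12 pairs of a stored and a Ctl array of the same tissue on the same slide are not independent, as some Ctl arrays recur and the stored arrays share kidneys. In all 12 PHYH was higher in the stored array, by 0.53 to 1.33. No other choice of processing and no array left out ended any of its 8 calls.

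HSD17B4, the peroxisomal bifunctional enzyme that hydrates and dehydrogenates acyl-CoA, fell. Its Ctl-C arrays read 13.22, 13.29, 13.39, 13.36 and 13.31, the 6 h arrays 12.37, 12.19, 13.08, 12.88 and 12.46 and the 24 h arrays 12.14, 12.18, 12.93, 13.004 and 12.39. The groups did not overlap in cortex. The fall was 0.72 (SE 0.18, limma adjusted p = 0.0260) after 6 h and 0.79 (adjusted p = 0.0201) after 24 h. In CMJ the Ctl arrays read 13.05, 13.10, 13.24, 12.74 and 12.77, the 6 h arrays 12.20, 12.16, 12.76, 12.63 and 12.24 and the 24 h arrays 12.05, 12.15, 12.41, 12.89 and 12.35, and the groups overlapped. HSD17B4 fell there by 0.59 (adjusted p = 0.0333) and 0.61 (adjusted p = 0.0232).

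These calls were close to the threshold. With 75th percentile scaling and on the authors' deposited values all 7 HSD17B4 calls were lost, on the latter with log2 fold changes of -0.65 to -0.46 and adjusted p of 0.0557 to 0.132. Of the 3 HSD17B4 calls in CMJ all were also lost with quantile normalization by group, per probe and with slide as a block, and of the 4 in cortex that after 24 h against Ctl was lost under no further alternative of processing. Of its 3 probes 1 was called lower in cortex after 6 h and 3 after 24 h. Of the calls against Ctl, that after 24 h in cortex was lost without Ctl-C 3 or WI+CS24h-C 1 or 2 (adjusted p up to 0.0647), and the 6 h call in cortex without Ctl-C 1, 2, 3 or 4 or WI+CS6h-C 1 or 5 (up to 0.0770). In CMJ the 6 h call was lost without Ctl-CMJ 1, 2 or 3 or WI+CS6h-CMJ 1, 2 or 5 (up to 0.0929) and the 24 h call without Ctl-CMJ 1, 2 or 3 or WI+CS24h-CMJ 1 or 2 (up to 0.0636). The calls against WI were kept only without array 3 or 4 of the stored group in cortex and only without WI+CS24h-CMJ 4 in CMJ (up to 0.128).

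The other 4 peroxisomal members on the array were not called. ACAA1, the peroxisomal thiolase, lay at -0.98 to -0.80 against Ctl with adjusted p of 0.168 or more, and its values are given with the stored arrays numbered 5. EHHADH, the other bifunctional enzyme, lay at -0.16 to -0.09 and ECI2, an enoyl-CoA isomerase, at 0.24 to 0.37. ACOX2, the oxidase of branched chains and bile acid intermediates, lay at -0.42 to -0.24. Its second identifier, AK395885, was called lower in cortex after 6 h (-0.74, adjusted p = 0.0251) and in CMJ after 24 h (-0.70, adjusted p = 0.00535), as it was against WI in cortex after 6 h (-0.98) and in CMJ at both times (-0.81 and -1.05). Both ACOX2 identifiers thus lay below Ctl, and they differed in passing the test.

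PDK4 fell most among the members. It encodes a kinase that shuts pyruvate out of oxidation in favour of fatty acids and is a known PPARA target. Its Ctl-C arrays read 13.21, 13.16, 13.18, 13.22 and 13.23 and its WI-C arrays 13.23, 13.33, 13.06, 13.005 and 13.05. The WI+CS6h-C arrays read 10.68, 10.51, 11.60, 11.92 and 9.73 and the WI+CS24h-C arrays 10.51, 10.49, 11.58, 11.90 and 9.84. The Ctl arrays lay close together, while the stored arrays were spread widely and all lay below them. PDK4 fell by 2.32 (SE 0.37, limma adjusted p = 0.00172), which is 4.98-fold, after 6 h and by 2.34 (adjusted p = 0.00181), 5.05-fold, after 24 h.

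In CMJ PDK4 read 13.10, 13.16, 13.22, 13.06 and 12.98 on Ctl arrays, 10.53, 10.44, 11.48, 11.96 and 9.44 after 6 h and 10.34, 10.48, 11.27, 12.01 and 9.38 after 24 h. The same numbers were high and low as in cortex, 4 the highest and 5 the lowest in every stored group. PDK4 fell by 2.33 (SE 0.42, limma adjusted p = 0.00329) and 2.41 (adjusted p = 0.00243) against Ctl, or 5.04-fold and 5.31-fold. Against WI it fell by 2.25 and 2.27 in cortex and by 2.31 and 2.38 in CMJ. All 9 PDK4 probes were called lower in each comparison. It was lower on the stored array in all 12 pairs sharing a slide and a tissue, by 1.05 to 3.85. The pairs are not independent, as some Ctl arrays recur among them and the stored arrays share kidneys. All 8 PDK4 calls were kept under every alternative and without any single array. No test is read from the alternative without the stored arrays numbered 5, which were singled out partly for their low PDK4.

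PLIN2, the coat protein of lipid droplets, read 10.18, 10.48, 10.48, 10.47 and 9.90 on Ctl-CMJ arrays and 9.01, 9.20, 9.21, 9.48 and 7.14 on WI+CS24h-CMJ arrays. The groups did not overlap, and array 5 stood about 2 log2 units below the other stored arrays. PLIN2 fell by 1.49 (SE 0.41, limma adjusted p = 0.0423) there. In CMJ against WI it fell by 1.62 (adjusted p = 0.0326) after 6 h and by 1.90 (adjusted p = 0.0130) after 24 h.

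The PLIN2 differences of -1.22 in CMJ after 6 h and of -1.46 and -1.49 in cortex against Ctl were not called (adjusted p = 0.113, 0.0758 and 0.0937), although every stored array lay below every Ctl array. Without the stored arrays numbered 5 they were smaller, at -0.82, -1.02 and -1.09, and as these arrays were singled out partly for their low PLIN2, no test is read from that fit. The 24 h CMJ call against Ctl was kept only without WI+CS24h-CMJ 3 or 4 among single arrays left out (adjusted p from 0.0365 to 0.0943), and the 6 h call against WI only without WI-CMJ 1 or WI+CS6h-CMJ 3 or 4 (0.0329 to 0.0877). PLIN2 was read by 1 probe, and with slide as a block both were lost (adjusted p = 0.238 and 0.0755), as was the former on the deposited values (0.0512).

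ANGPTL4, a secreted inhibitor of lipoprotein lipase and PPAR target, read 10.49, 10.55, 10.69, 10.14 and 10.13 on Ctl-CMJ arrays and 9.02, 8.96, 9.70, 9.94 and 7.92 on WI+CS24h-CMJ arrays. The groups did not overlap, and array 5 was the lowest. ANGPTL4 fell by 1.29 (SE 0.37, limma adjusted p = 0.0481) against Ctl and by 1.40 (adjusted p = 0.0371) against WI. The other 3 differences from Ctl, -1.08 to -1.31, did not pass. The call against Ctl was kept only without WI+CS24h-CMJ 3 or 4 (adjusted p from 0.0265 to 0.111), and that against WI only without WI-CMJ 1 or WI+CS24h-CMJ 3 or 4 (0.0230 to 0.0838). With slide as a block they were lost (adjusted p = 0.289 and 0.0796), and with scan day as a block the former was (0.0535).

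PPARA itself was called higher in CMJ after 6 h on 1 of its 2 identifiers. On AK232864 the Ctl-CMJ arrays read 5.65, 5.64, 5.61, 5.86 and 5.70 and the WI+CS6h-CMJ arrays 7.25, 7.01, 6.12, 6.66 and 5.85. Arrays 1, 2 and 4 were high and array 5 lay among the Ctl values. The difference was 0.89 (SE 0.23, limma adjusted p = 0.0367) against Ctl and 0.93 (adjusted p = 0.0311) against WI. After 24 h it was 0.79 (adjusted p = 0.0580) against Ctl, not called, and in cortex 0.27 and 0.41, not called. The difference between tissues at 6 h, 0.62 (SE 0.39), did not pass (interaction, limma adjusted p = 0.837).

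The other PPARA identifier, NM_001044526, stood at 0.20 (adjusted p = 0.739) and 0.27 (adjusted p = 0.552) in CMJ and was not called, so the rise rests on 1 probe. The call against Ctl was kept only without WI+CS6h-CMJ 3 or 5 (adjusted p from 0.00903 to 0.103), as was that against WI (0.00887 to 0.0836). After normexp background correction the difference was 0.31 from either group, under the fold limit, and with slide as a block both calls were lost (adjusted p = 0.0896 and 0.177), as was that against Ctl with 75th percentile scaling (0.0537). PPARGC1A, the coactivator, lay at 0.25 and 0.28 in cortex (adjusted p = 0.0950 and 0.0794) and at 0.03 and 0.05 in CMJ, not called.

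Of the genes of uptake, binding and activation DBI, the acyl-CoA binding protein, was called, in CMJ against WI. Its WI-CMJ arrays read 14.26, 14.32, 14.29, 14.27 and 14.26, the 6 h arrays 13.25, 13.28, 14.08, 13.92 and 13.72 and the 24 h arrays 13.13, 13.35, 13.84, 14.06 and 13.76. All stored arrays lay below the narrow WI range, arrays 1 and 2 the most. DBI fell by 0.63 (SE 0.17, limma adjusted p = 0.0480) after 6 h and by 0.66 (adjusted p = 0.0386) after 24 h. Against Ctl it lay at -0.58 to -0.51 in both tissues and did not pass. The 2 calls were kept only without array 3 or 4 of the stored group, with adjusted p up to 0.126 and 0.102, and were lost with slide as a block (adjusted p = 0.0693 and 0.0797), with 75th percentile scaling (0.0837 and 0.0726) and without the stored arrays numbered 5 (0.0664 and 0.0508). Without those arrays DBI differed from WI by -0.65 and -0.69, which is not smaller in size than with them. The 6 h call was also lost with quantile normalization by group, normexp, the deposited values and scan day as a block (0.0503 to 0.0565), and so was lost under 7 of 11 alternatives.

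Other genes of this role were not called. ACSL5, an acyl-CoA synthetase, lay at -0.47 to -0.26 against Ctl and ACSL4, which prefers arachidonic acid, at 0.24 to 0.38. ACSL3 lay at -0.16 to -0.02 and CD36, the fatty acid translocase, at -0.08 to 0.13. FABP3, the heart type binding protein, lay at 0.01 to 0.56.

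**Figure D3:**
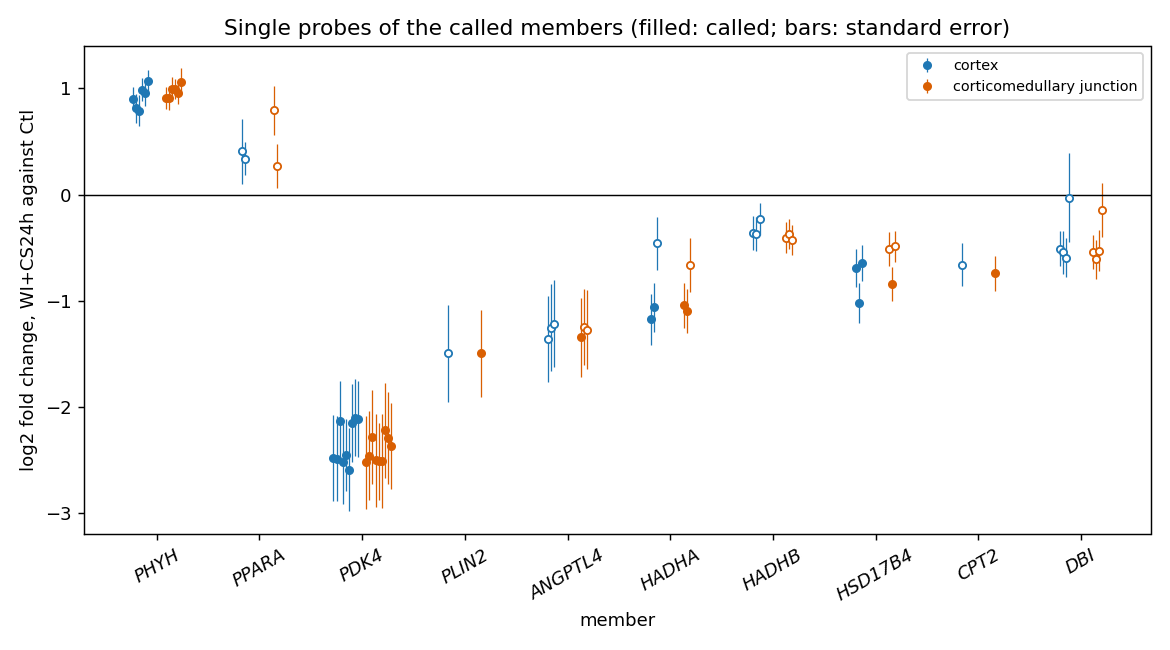
Log2 fold change of WI+CS24h against Ctl for each single probe of the 10 called members, in cortex and CMJ, with the standard error as bars. Filled points were called. The 9 PDK4 probes lie between 2 and 3 log2 units below 0, all 6 PHYH probes lie above 0, and 1 HADHA probe lies nearer to 0 than the other 2.

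Stored arrays carrying the number 5 stood apart for part of the members, a pattern chosen after the values were seen and given here as a description. In all 4 stored groups array 5 lay at least 1 log2 unit below the mean of the other 4 arrays for 7 members, PLIN2, CPT1A, ACAA1, ACSL1, ANGPTL4, PDK4 and FABP1, and it was the lowest of the 5 for all of them but FABP1, which was near background. Of 35881 identifiers 0.649% were as low and 0.847% as high, and 0 members were as high. The difference was -2.19 to -1.99 for PLIN2, -2.16 to -1.83 for CPT1A, -2.16 to -1.81 for ACAA1 and -1.71 to -1.50 for ACSL1. The labels state that the 6 h and 24 h samples came from the same kidneys, but not which number belongs to which kidney.

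ACAA1 read 12.98 to 13.06 on Ctl-C arrays and 12.31, 12.13, 12.87, 12.57 and 10.31 on WI+CS6h-C arrays. In CMJ it read 12.44 to 12.93 on Ctl arrays and 12.14, 12.21, 12.52, 12.39 and 10.42 after 6 h. The stored arrays numbered 1 to 4 also lay below the Ctl range in cortex, while in CMJ array 3 overlapped it. Without the stored arrays numbered 5, which were singled out partly for their low ACAA1, its difference from Ctl was -0.55 and -0.52 in cortex and -0.42 and -0.50 in CMJ, and no test is read from that fit. ACSL1, the main long-chain acyl-CoA synthetase, read 8.58, 8.63, 8.41 and 8.48 on the arrays numbered 5, while its lowest other stored array read 9.65. Its difference from Ctl was -0.67, -0.66, -0.37 and -0.47 with these arrays, not called. Without them, as they were singled out partly for their low ACSL1, only the differences are given, -0.34, -0.34, -0.03 and -0.17, and no test is read.

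For ACADL (-0.80 to -0.59), ACSL3 (-0.58 to -0.42), HADHB (-0.58 to -0.38) and ETFDH (-0.43 to -0.36) array 5 was also the lowest in all 4 groups, by less, and for HADHA (-0.73 to -0.50) and CPT2 (-0.80 to -0.46) in 3 of 4. Some members went the other way. FABP3 on array 5 was 0.44 to 1.04 above the mean of the other stored arrays, ACSL4 0.68 to 0.92 and CD36 0.53 to 0.84, and each was the highest of the 5 in all 4 groups. DBI and HSD17B4 were lowest on arrays 1 and 2 in place of 5. Arrays 3 and 4 were the highest of the stored ones for PDK4, ANGPTL4, PLIN2, HADHA, HADHB, HSD17B4 and DBI in all 4 groups.

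The arrays numbered 5 lay on 4 slides and both scan days. Their share of spots well above background was 57.0% in WI+CS6h-C (others 57.2% to 68.5%), 67.0% in WI+CS24h-C (63.4% to 67.5%), 64.3% in WI+CS6h-CMJ (66.5% to 69.9%) and 66.0% in WI+CS24h-CMJ (62.2% to 64.0%), so it lay below the others of its group after 6 h in both tissues and above them in WI+CS24h-CMJ. Of the marker lists, the mean of the 11 proximal tubule markers was lower by 0.27 to 0.58 on them, with GATM and FBP1 at least 1 lower in all 4 groups, and HBB, the 1 erythrocyte marker on the array, was at least 1 higher in all 4, though it was near background on part of the stored arrays. CD14, 1 of 3 leukocyte markers, was also at least 1 higher in all 4 groups, while the mean of that list differed by -0.46 to 0.44 and that of the collecting duct list by -0.47 to 0.03. The means of the adipocyte and endothelium lists were lower by 0.05 to 0.36 and 0.06 to 0.38, and those of the thick ascending limb and skeletal muscle lists higher by 0.10 to 0.30 and 0.08 to 0.30. Their part in the result was not tested. Without these 4 arrays 4, 5, 6 and 5 members were called in cortex (6 h and 24 h against Ctl, then against WI), beside 1148, 1238, 697 and 590 of all identifiers, and in CMJ 5, 8, 7 and 9, beside 1257, 1448, 1163 and 1177. As the arrays were singled out partly for low values of members such as PDK4, PLIN2 and ANGPTL4, no test is read from these counts.

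**Figure D4:**
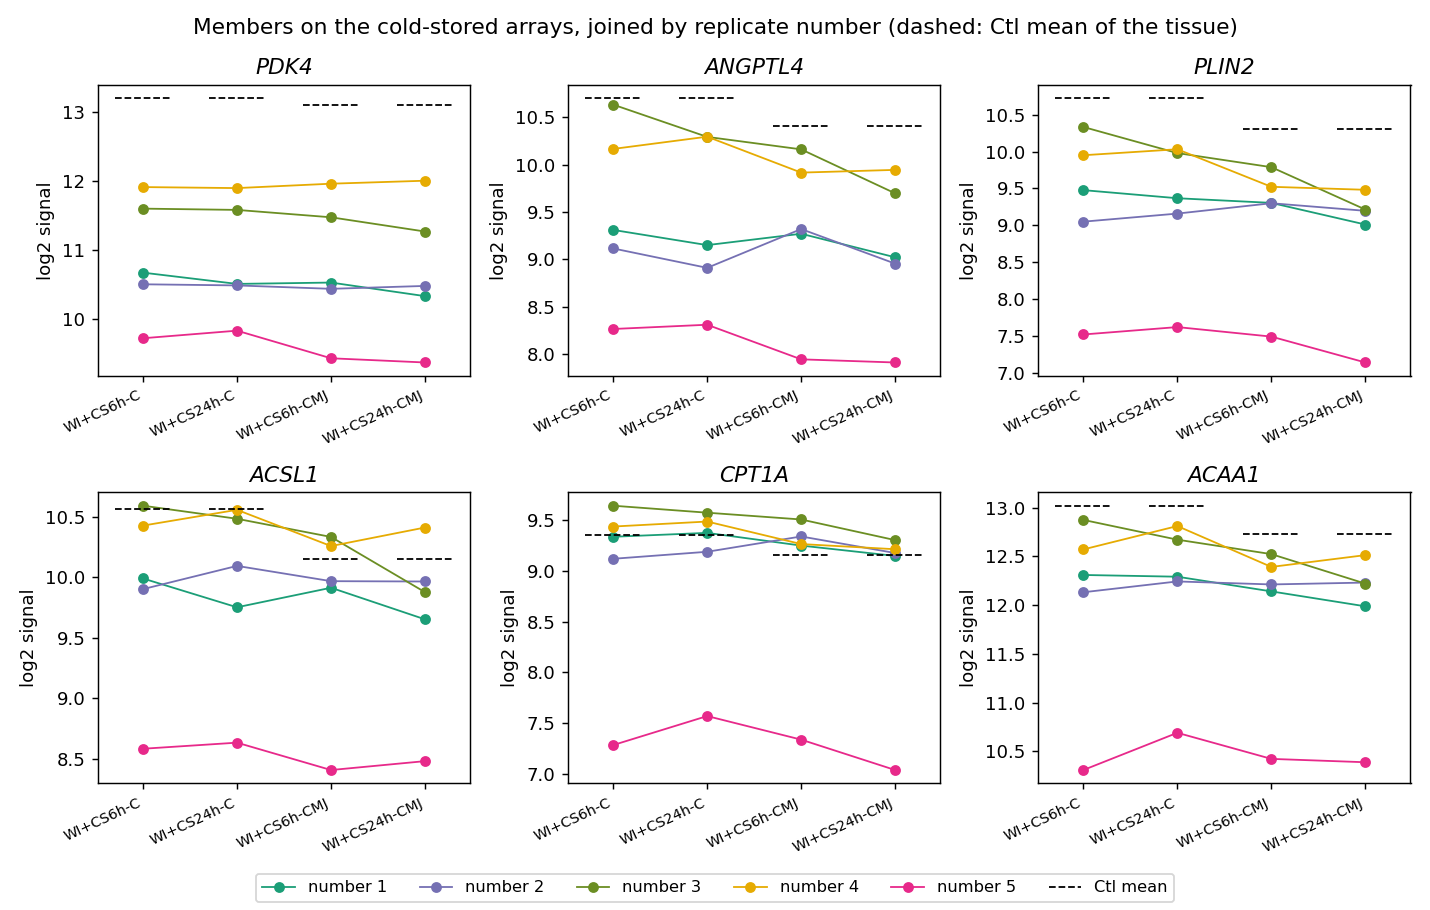
Log2 signal of 6 members on the cold-stored arrays, with arrays of the same replicate number joined across the 4 stored groups and the Ctl mean of the tissue dashed. The number 5 line lies lowest for all 6 in each group, by about 2 log2 units for PLIN2, CPT1A and ACAA1. For CPT1A the other 4 numbers lie around the Ctl mean, and for PDK4 all 5 lie below it.

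No difference between 24 h and 6 h of storage was detected for these genes. Samples of the same kidney were not paired in this comparison, so the spread between kidneys enters its error. In cortex 0 members were called between the times, beside 0% of all identifiers, and in CMJ 0 members, beside 0.00278%, which is 1 identifier. The members' differences lay between -0.11 and 0.17 in cortex and between -0.27, for PLIN2, and 0.08 in CMJ. PDK4 differed by -0.02 and -0.08 and PHYH by -0.09 and -0.01.

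Cortex and CMJ were compared in a fit of all 40 arrays, which treats samples of the same kidney as independent. In it 0 members were called between CMJ and C in the Ctl, WI, WI+CS6h and WI+CS24h kidneys, beside 0.312%, 0.671%, 0.0807% and 0% of all identifiers. FABP3 came closest, at 0.88 (SE 0.22, limma adjusted p = 0.0821) higher in Ctl-CMJ than in Ctl-C. It was called with the replicate number as a block (0.88, SE 0.20, limma adjusted p = 0.0261). Deviations of same-numbered Ctl samples did not correlate above 0.1, however, and which numbers share a kidney is not stated. In the interactions of storage or warm ischemia with tissue 0 members were called, beside 0% of all identifiers.

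Related genes listed beside the members were read in the same comparisons. Of 102 such genes 69 were on the array, and 14 were called in at least 1 of the 10 comparisons with Ctl or WI, which is 20.3% beside 8.67% of all identifiers (3.94% called higher and 4.89% lower). These lists too were chosen with earlier results of these data known. Of 15 other PPAR regulators 1 was called higher and 2 lower. KLF15, a transcription factor that promotes fatty acid use, fell in 8 comparisons by 0.74 to 0.89 (smallest limma adjusted p = 5.28e-04). RXRB, a partner receptor of PPARA, fell in 2, and PPARD, the sister receptor, rose in WI-CMJ against Ctl by 0.55 (adjusted p = 0.0448).

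Of 18 other genes of fatty acid handling and known PPAR targets 2 were called higher and 4 lower, or 33.3% called beside 8.67% of all identifiers. PNPLA2, the lipase that opens triglyceride stores, fell in 4 comparisons by 1.01 to 1.12 (smallest adjusted p = 0.00454) and TXNIP in 2. CYP4A21, a porcine fatty acid hydroxylase, fell in 8 comparisons by 0.54 to 1.12 and CYP4A24 in 2, and as porcine CYP4A genes are close copies their probes may share signal. FABP5, the epidermal binding protein, rose in 4 comparisons, all in cortex, by 0.83 to 0.93, and LPL, lipoprotein lipase, rose in 1 by 1.06.

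Of 19 other peroxisomal genes 1 was called higher and 2 lower, or 15.8% called beside 8.67% of all identifiers. PEX6, needed for protein import into peroxisomes, fell in 8 comparisons by 0.92 to 1.09, and HAO2, a hydroxyacid oxidase, in 1. PIPOX, which oxidizes pipecolic acid and sarcosine, rose in 4 comparisons by 1.27 to 1.42. Of 13 other mitochondrial and carnitine genes 0 were higher and 2 lower, or 15.4% called beside 8.67%. MLYCD, which removes the malonyl-CoA that blocks CPT1A, fell in 2 comparisons and UCP2 in 1. Of 4 other ketone body genes 0 were called by limma in any of these comparisons.

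Marker lists of the cell types a sample could hold also shifted. List means are given in the order Ctl, WI, WI+CS6h and WI+CS24h. The skeletal muscle list read 3.30, 3.37, 3.79 and 3.86 in cortex, against 3.66, 3.59, 3.90 and 3.91 in CMJ. Most of this lay in 1 gene, CKM, the muscle creatine kinase, at 4.97, 4.70, 7.11 and 7.31 in cortex, against 6.38, 6.00, 7.82 and 7.93 in CMJ, while MB, MYL1 and TNNT3 had means below 2 in all groups. The thick ascending limb and distal tubule list read 9.79, 9.66, 10.12 and 10.13 in cortex, against 10.18, 10.07, 10.24 and 10.27 in CMJ. The proximal tubule list read 12.63, 12.80, 12.72 and 12.70 in cortex, against 12.36, 12.61, 12.62 and 12.48 in CMJ, with its highest cortex mean in WI. The collecting duct list read 9.04, 9.28, 9.23 and 9.28 in cortex, against 9.22, 9.30, 9.16 and 9.26 in CMJ. The adipocyte list read 5.18, 5.20, 5.41 and 5.35 in cortex, against 5.14, 5.58, 5.26 and 5.19 in CMJ, and was highest there in WI. The endothelium list read 8.19, 8.26, 8.33 and 8.32 in cortex, against 8.17, 8.42, 8.37 and 8.45 in CMJ, and the leukocyte list 4.78, 5.04, 4.72 and 4.61, against 4.66, 4.95, 4.53 and 4.51. HBB was well above background on all WI arrays and on part of the arrays of every other group, and its mean was highest in WI in both tissues, at 4.20 and 3.78. Several of these shifts were larger in size than the members' median in the same comparison. Of the 43 markers on the array 7, or 16.3%, were called in at least 1 of the 10 comparisons, beside 8.67% of all identifiers. Of 11 proximal tubule markers 2 were called higher (GGT1 and SLC22A8) and 0 lower, and their mean level on an array ran from 12.2 to 12.8 in Ctl and from 12.1 to 13.003 in stored groups. Of 6 adipocyte markers 0 were called, with mean levels of 4.82 to 5.40 in Ctl and 5.00 to 5.64 in stored groups, and of 3 leukocyte markers and 1 erythrocyte marker 0 were called. Of 6 skeletal muscle markers CKM rose in 4 comparisons in cortex by 2.14 to 2.60, of 5 collecting duct markers SCNN1G rose in 5 comparisons and AQP3 fell in 4, of 5 endothelium markers KDR rose in 2, and of 6 markers of the thick ascending limb and distal tubule PVALB rose in 1. Their part in the members' changes was not tested.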

How the data were processed

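Total RNA of 40 samples was read on single-color Agilent porcine arrays, and the authors deposited 1 output of Feature Extraction 11.5.1.1 per array, in scanner intensity that was background-subtracted and not normalized between arrays. The authors also deposited a matrix of log2 values, made with R 2.15.2 and limma, which was used as an alternative. Each of its 40 columns correlated best with its own array (r 0.9991 to 0.9997), the column medians were 5.316 to 5.355, and which intensity was taken to log2 is not given in the sources used here.

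From that intensity the log2 was taken for 43803 spots other than controls, outlier spots (10 to 85 per array) were treated as missing, the arrays were quantile normalized together and spots of an identifier averaged, which gave 35955 identifiers. The members and lists were chosen with earlier results of these data known. Linear models (lmFit, eBayes) were fitted with limma 3.58.1 under R 4.3.3, on the 20 arrays of a tissue with 1 term per group for comparisons within a tissue (35939 identifiers in cortex, 35938 in CMJ) and on all 40 arrays for tissues and interactions (35934), with Benjamini-Hochberg adjustment over all identifiers. Genes described singly are the members called in at least 1 of 10 comparisons with Ctl or WI, plus CPT1A, PPARA, PPARGC1A, PDK4, ANGPTL4, DBI, ACADVL, HADHA and BDH1 in any case. ACAA1 and ACSL1 on single arrays and the number 5 pattern were chosen after their values were seen. Each condition used 5 kidneys, shared by its cortex and CMJ arrays and by both storage times, and with 5 arrays per group their number limits the precision. Which numbers share a kidney is not stated. Deviations of same-numbered samples correlated above 0.1 in all 5 pairs between WI+CS6h-CMJ and WI+CS24h-CMJ (r 0.332 to 0.608) and between cortex and CMJ of WI+CS6h (0.135 to 0.457) and WI+CS24h (0.145 to 0.481), but not between the times in cortex (-0.31 to 0.363) nor between tissues of Ctl (-0.128 to 0.0799) or WI (0.0362 to 0.175). The code was checked on data with known changes in 200 identifiers. Alternatives were 75th percentile scaling, quantile normalization by group, normexp (offset 50), a filter on dim genes, a fit per probe, the deposited values, the replicate number, slide or scan day as a block, and each array left out. A block joining the stored samples of a number and a fit without the stored arrays numbered 5 were added after seeing the data.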

Additional observations from a re-analysis of the deposited data

Results flagged for a closer look

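In 8 of 96 groups of 5 arrays tested for 12 members, 1 array stood farther from the rest than Dixon's 95% limit allows, where chance gives about 1 in 20 for independent groups, which the stored groups are not, as they share kidneys. CPT1A had array 5 apart in all 4 stored groups, with a gap to the next array of 0.778 of the range in WI+CS6h-C, 0.808 in WI+CS24h-C, and in CMJ 0.881 after 6 h and 0.931 after 24 h. PLIN2 was set apart by array 5 in CMJ, with a gap of 0.787 after 6 h and 0.799 after 24 h. In the controls ANGPTL4 was low on array 4 of Ctl-C (0.764) and PHYH was low on array 5 of Ctl-CMJ (0.765).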

How the results depend on the processing

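Of the 46 calls of a member in a comparison none changed sign under any alternative. All 46 were kept with the filter on dim genes, with the replicate number as a block and with the block added after seeing the data, 42 with scan day, 41 with normexp, 40 per probe, 39 with quantile normalization by group, 37 on the deposited values, 36 without the stored arrays numbered 5, 33 with 75th percentile scaling and 31 with slide as a block, and 25 were kept without each array in turn. PDK4 and PHYH kept all 8 calls each. The stored arrays numbered 5 were singled out partly for low PDK4, PLIN2 and ANGPTL4, so no test of these genes is read from the fit without them. The count of members moved by over 1.5 times with 75th percentile scaling (2 in WI+CS6h-C, 2 in WI+CS24h-C and 3 in WI+CS6h-CMJ against Ctl, beside 1196, 692 and 987 of all identifiers), with quantile normalization by group (7 in WI+CS6h-C against Ctl, beside 3062), with the dim filter (9 in WI+CS6h-C against WI, beside 863), with the replicate block (10 in WI+CS6h-C against WI, beside 690, and 1, FABP3, in Ctl-CMJ against Ctl-C, beside 193), and with slide as a block (CMJ, 3 and 2 against Ctl, beside 935 and 594, and 4 and 5 against WI, beside 493 and 814). Leaving out single arrays gave 2 to 6, 2 to 5, 3 to 9 and 3 to 7 members in cortex (6 h and 24 h against Ctl, then against WI), 2 to 6, 4 to 9, 4 to 9 and 5 to 11 in CMJ, and 0 to 0 elsewhere. Within a scan day PDK4 in WI+CS6h lay at -1.90 and -2.59 in cortex and at -3.16 and -1.78 in CMJ against Ctl. Over all identifiers in WI+CS6h-C against Ctl 1445 were called, 270 with normexp, 3062 with quantile normalization by group, 3570 with slide as a block and 759 on the deposited values, and the share of them higher went from 40.5% to 23.8% with normalization by group and to 29.6% with normexp. In WI+CS24h-CMJ against Ctl the numbers were 1313, 192, 1777, 594 and 548, with 37.0% higher and 54.8% by group. Normalization by group gave 1152 and 352 identifiers between 24 h and 6 h in cortex and CMJ, with 0 members, took the median of all identifiers to between -0.13 and 0.17 within a tissue and to 0.24 in the WI+CS24h by tissue interaction, and the members' median in WI+CS6h-C against WI to -0.04. With signal as the limit, FABP1 was too dim to compare.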
